A study of Mus musculus with 4 samples.

Results

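The genes described here encode the transcription factors known for driving the epithelial-to-mesenchymal transition (EMT): the ZEB factors Zeb1 and Zeb2, the Snail factors Snai1, Snai2 and Snai3, the Twist factors Twist1 and Twist2, the paired-type homeobox factor Prrx1 and the forkhead factor Foxc2. They were chosen by symbol and not by any measured value. Of the 9 genes, 7 were found among the 48395 genes of the table and 4 of these, Zeb1, Zeb2, Snai1 and Prrx1, reached the mean of 1 FPKM (fragments per kilobase of transcript, scaled to the library's total) over all libraries that was set for testing, as did 14330 genes in all. Snai3 and Foxc2 are not analysed here.

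RNA was measured in cells of the forebrain cortex of ICR mouse embryos that had been electroporated in utero at E14.5 and taken at E16.5, 48 hours later. In the Zeb1 group, 2 libraries came from sorted fluorescent cells carrying a plasmid (CAG-Zeb1-IRES-ZsGreen) that expresses Zeb1 together with the green fluorescent protein ZsGreen. In the control group, 2 libraries came from cells carrying the plasmid with ZsGreen alone (CAG-IRES-ZsGreen), so both groups went through electroporation, dissociation with papain and sorting. CAG is a strong promoter active in nearly all cell types, so the promoter itself did not limit expression to a single kind of cortical cell. Which cells took up the plasmid depends on the electroporation and was not measured here. The labels do not say whether the 2 libraries of a group came from separate litters or from pooled embryos, so every p-value reflects the spread between 2 libraries, which may be technical. The comparison asks what excess ZEB1 changes in developing cortex. Described here is how the EMT factor genes stood in these cells with and without it.

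ZEB and Snail proteins are zinc-finger repressors that bind E-box sequences such as CACCTG in the promoters of epithelial genes, E-cadherin being the best known. ZEB proteins recruit the corepressors CTBP1 and CTBP2, and Twist proteins act as helix-loop-helix dimers with E proteins. In epithelia the ZEB genes and the miR-200 microRNAs repress each other. In the embryonic cortex Zeb1 is known from progenitors and Zeb2 from young neurons, while Snail, Twist, Prrx1 and Foxc2 are better known from neural crest, limb, mesoderm and the mesenchyme around the brain.

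The microRNAs of the ZEB loop are shown with the seed, bases 2 to 8 from the 5′ end, in capitals (RefSeq, GRCm38.p6). The first pair shares one seed, the next 3 share a seed that differs from it by a single base, and miR-205, which also targets ZEB genes, has a seed of its own, whose match (ATGAAGG) occurs 1 time in the Zeb1 3′ UTR and 0 times in that of Zeb2, against at least 1 time in 11.1% of 21020 annotated 3′ UTRs.
mmu-miR-200a-3p: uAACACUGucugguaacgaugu
mmu-miR-141-3p: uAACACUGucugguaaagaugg
mmu-miR-200b-3p: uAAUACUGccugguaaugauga
mmu-miR-200c-3p: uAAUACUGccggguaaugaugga
mmu-miR-429-3p: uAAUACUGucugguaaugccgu
mmu-miR-205-5p: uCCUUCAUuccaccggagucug

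The longest annotated Zeb2 3′ UTR (GENCODE M21, 4941 bases) held 5 matches to the seed of miR-200b, miR-200c and miR-429 (CAGTATT, sense strand) and 4 to that of miR-200a and miR-141 (CAGTGTT). Among 1046 annotated 3′ UTRs within 20% of this length, 37.5% held at least 1 CAGTATT and 0.287% held at least 5, and 50.3% held at least 1 CAGTGTT and 1.53% at least 4. The Zeb1 3′ UTR (2401 bases) likewise held 5 and 4 matches, Snai2 held 1 of each, Snai1 held 1 CAGTATT and Prrx1 held neither in 4891 bases. Below are 4 of the Zeb2 matches, in capitals, read on the minus strand of chromosome 2 (GRCm38), each with its surrounding bases. These are matches of letters and not measured binding.
Zeb2, chr2:44988099-44988125: tacagtgcatCAGTATTacgattcctc
Zeb2, chr2:44987652-44987678: ttaattttgtCAGTATTacaccaaact
Zeb2, chr2:44988348-44988374: aaattttgtaCAGTGTTaaggcctaaa
Zeb2, chr2:44987775-44987801: gcaccagcttCAGTGTTaagctcaccg

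The microRNA genes themselves gave no signal. Mir200a, Mir200b, Mir429, Mir200c, Mir141 and Mir205 were listed at 0 in all 4 libraries, as were Mir203, Mir34a, Mir34b and Mir34c, which have been tied to Snail or ZEB control in other tissues. In all, 10 of 10 microRNA genes on the list were at 0. Mature microRNAs are too short for a usual RNA-seq library, so these zeros speak of the hairpin loci in this table and not of mature microRNA levels.

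Although the table gives FPKM, the number of fragments could be recovered from its low values. In genes with 1 annotated transcript, low values fell on steps that depended on transcript length as 1, 2, 3 and more fragments would. To the nearest 100000, the depth behind these steps was 20000000 and 20900000 fragments in Zeb1 replicates 1 and 2 and 20200000 and 20300000 fragments in control replicates 1 and 2. Of the genes with an estimate between 1 and 20 fragments, 89.8% to 90.5% per library came out within 0.1 of a whole number. Depth was therefore close to equal, and between 13647 and 13997 genes per library reached 1 FPKM. The 9 markers of cortical projection neurons, led by Map2 and Neurod6, summed to 1796 and 1660 FPKM in Zeb1 libraries and to 1899 and 1632 FPKM in controls, as the labelled tissue would have. The sum does not speak for each marker, since Tbr1, a factor of deep-layer neurons, had 64.8 and 74.8 FPKM in Zeb1 libraries and 116 and 119 FPKM in controls (log2 fold change of -0.75, limma adjusted p = 0.487). Radial glia markers summed to 1304 and 950 FPKM in Zeb1 libraries and 851 and 827 FPKM in controls, and intermediate progenitor markers to 664 and 558 FPKM against 487 and 581 FPKM. Erythroid markers, at 139 and 51.5 FPKM in Zeb1 libraries and 64.6 and 55.6 FPKM in controls, were highest in Zeb1 replicate 1. Choroid plexus markers, at 8.09 and 0.345 FPKM in Zeb1 libraries and 15.1 and 0.971 FPKM in controls, were higher in replicate 1 of both groups. Endothelial markers summed to 17.96 and 14.9 FPKM in Zeb1 libraries and 12.9 and 14.8 FPKM in controls, and oligodendrocyte lineage markers to 17.9 and 16.96 FPKM against 15.6 and 13.9 FPKM. Microglial markers (10 of 10 detected) stood apart between libraries, with summed levels of 756 and 405 FPKM in Zeb1 libraries and 415 and 106 FPKM in controls, although a sort for fluorescence should leave out cells without the plasmid. Markers of the mesenchymal cells that could carry Snail, Twist or Prrx1 transcripts were low. The 8 meningeal fibroblast markers summed to 3.20 and 3.06 FPKM in Zeb1 libraries and 2.31 and 1.92 FPKM in controls, and the 7 mural markers to 10.7 and 7.11 FPKM against 5.76 and 6.14 FPKM. The fibroblast proteoglycan gene Lum was near the floor, at 0.0266 and 0.0766 FPKM in Zeb1 libraries and 0 and 0.0263 FPKM in controls. In control replicate 1, where Lum was at 0, Pdgfra of the same list had 1.03 FPKM.

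**Figure D1:**
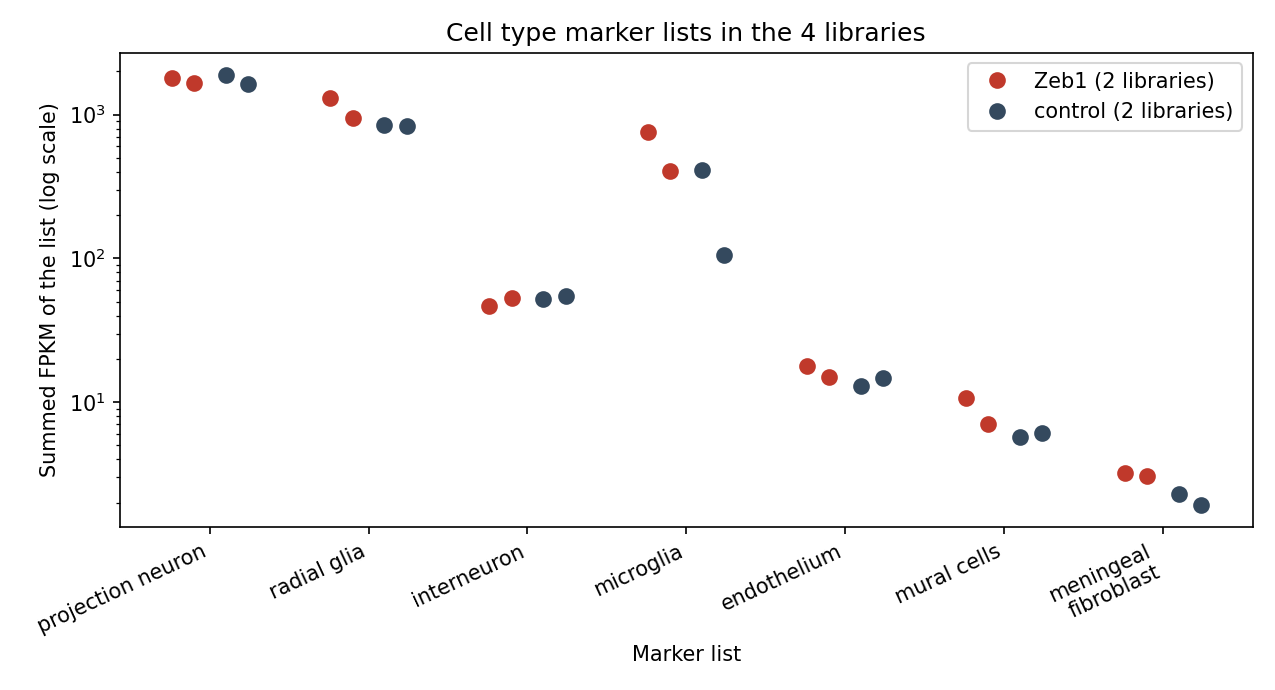
Summed FPKM (log scale) of 7 cell type marker lists, one point per library, Zeb1 libraries left and controls right in each column. Projection neuron markers lie between 1632 and 1899 FPKM in all 4 libraries, microglial markers run from 106 FPKM in control replicate 2 to 756 FPKM in Zeb1 replicate 1, and meningeal fibroblast markers lie between 1.92 and 3.20 FPKM.

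Zeb1 stood at 5622 and 6227 FPKM in the Zeb1 libraries, against 35.2 and 18.6 FPKM in the controls. The groups were far apart, with each Zeb1 library 160 to 335 times each control and group means of 5925 ± 428 FPKM in Zeb1 libraries and 26.9 ± 11.7 FPKM in controls (SD, n = 2 each), a ratio of 220. Zeb1 ranked second of 21653 protein-coding genes in both Zeb1 libraries, against ranks of 3147 and 5095 in controls. It took 0.902% and 1.09% of all FPKM in Zeb1 libraries and 0.00582% and 0.00303% in controls. Taken as a difference of log2(FPKM + 1), the scale of every fold change below, this was 7.80 with a standard error of 0.35, and Zeb1 passed the limma test over all genes (adjusted p = 0.0192). That test called 28 genes (0.195% of those tested), 12 higher (0.0837%) and 16 lower (0.112%), and Zeb1, as the gene on the plasmid, had to be among the first. This checks the labels, and FPKM per gene (chromosome 18 of GRCm38, 5591860 to 5775467, plus strand) do not separate plasmid from endogenous transcript. The call was lost with any single library removed, with adjusted p of 0.116 without control replicate 1, 0.125 without control replicate 2, 0.270 without Zeb1 replicate 1 and 0.330 without Zeb1 replicate 2, while the log2 fold change stayed between 7.35 and 8.24.

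The endogenous level was the less repeatable side. The controls differed 1.89-fold from each other in Zeb1, and of 2614 protein-coding genes within 1.5-fold of that level 2.98% differed at least as much between the controls, with a median of 1.15-fold. The control with more Zeb1, replicate 1, also had the higher summed level of microglial markers, 415 against 106 FPKM, and the part of those cells in the Zeb1 level was not tested.

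**Figure D2:**
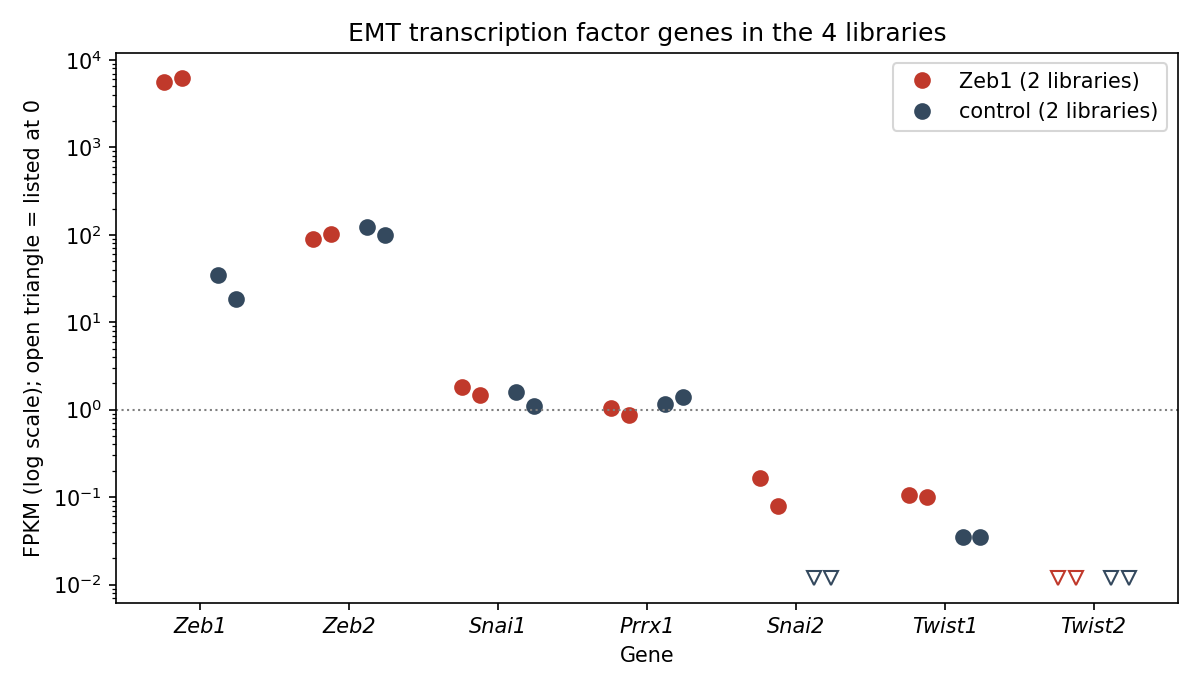
FPKM (log scale) of the 7 EMT factor genes in the table, one point per library, Zeb1 libraries left and controls right, with open triangles for values listed at 0 and a dotted line at 1 FPKM. Zeb1 separates by more than 100-fold, Zeb2 lies near 100 FPKM in all 4 libraries, Snai1 and Prrx1 near 1 FPKM, and Snai2, Twist1 and Twist2 below 0.2 FPKM.

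Zeb2, the other ZEB gene (chromosome 2, 44983632 to 45117395, minus strand), was not seen to move with the plasmid. It had 88.6 and 102 FPKM in Zeb1 libraries, against 121 and 99.7 FPKM in controls. The groups overlapped, since Zeb1 replicate 2 lay above control replicate 2, and the means were 95.4 ± 9.65 FPKM in Zeb1 libraries and 111 ± 15.3 FPKM in controls (SD, n = 2 each). The log2 fold change was -0.21 with a 95% interval of -0.71 to 0.29, and Zeb2 did not pass the limma test (adjusted p = 0.785). The controls differed 1.22-fold from each other in Zeb2, and 32.7% of protein-coding genes within 1.5-fold of that level differed at least as much. The interval leaves room for a fall to about the lower bound or a slight rise, and in sorted bulk cells fewer cells of a type and less RNA per cell cannot be told apart. Zeb2 is known in microglia and interneurons as well as projection neurons, and the sort should leave out cells of any type without the plasmid. Interneuron markers summed to 46.4 and 53.4 FPKM in Zeb1 libraries and 52.4 and 54.5 FPKM in controls, and the part of these cells in the Zeb2 level was not tested.

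The balance between the ZEB genes, as FPKM per length, differed between the groups in direction. That was set by the design, since Zeb1 FPKM do not separate plasmid from endogenous transcript. Zeb1 was 63.5 and 60.9 times Zeb2 in the Zeb1 libraries, against 0.290 and 0.187 times in controls. In control cells Zeb2 was therefore the leading ZEB transcript, at 3.45 and 5.36 times Zeb1. Zeb2os, an antisense transcript that overlaps the Zeb2 locus, had 5.9998 and 2.49 FPKM in Zeb1 libraries and 4.87 and 4.02 FPKM in controls, with a log2 fold change of -0.14 (limma adjusted p = 0.956). The sources used here do not say whether reads were counted by strand, so reads of Zeb2 and Zeb2os may not be separated.

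Snai1, the founding Snail factor and a direct repressor of E-cadherin in epithelia, was present at a low level. Its single annotated transcript of 1621 bases (chromosome 2, 167538195 to 167542814, plus strand) gave 1.79 and 1.48 FPKM in Zeb1 libraries, against 1.57 and 1.11 FPKM in controls. Behind these values were 51 and 44 recovered fragments in Zeb1 libraries and 45 and 32 in controls, with 95% Poisson intervals that cover counting error only and overlap throughout, from 38.0 to 67.1 for the highest to 21.9 to 45.2 for the lowest. The groups overlapped, with control replicate 1 above Zeb1 replicate 2. The log2 fold change was 0.18 with a 95% interval of -0.57 to 0.92 (limma adjusted p = 0.897). The Snai1 promoter window in RefSeq, 250 bases before to 50 after the start site, holds 1 E-box of the form CACCTG or CAGGTG (each the other's reverse complement, so both strands are covered), which starts 126 bases before the start site and is shown in capitals because it is the kind of site that ZEB and Snail factors bind.
Snai1, chr2:167538057-167538086, plus strand, GRCm38.p6: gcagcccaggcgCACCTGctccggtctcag

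Of all 32851 promoter windows in RefSeq, 20.2% hold at least 1 such E-box. The 4 windows of Zeb2 and those of Twist1, Twist2 and Prrx1 hold none. An E-box in these letters is no evidence that a factor bound there in these cells.

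Prrx1, which in limb and head mesenchyme keeps cells undifferentiated (chromosome 1, 163245119 to 163313710), had 1.04 and 0.873 FPKM in Zeb1 libraries, against 1.18 and 1.38 FPKM in controls. Its means were 0.957 ± 0.119 FPKM in Zeb1 libraries and 1.28 ± 0.147 FPKM in controls (SD, n = 2 each), so it reached the level for testing through the controls. Both Zeb1 libraries lay below both controls, as did those of 19.5% of all genes tested; in either direction 37.6% of genes had groups that did not overlap. The log2 fold change was -0.22 with a 95% interval of -0.98 to 0.54 (limma adjusted p = 0.858), and it was between -0.39 and -0.15 over the alternatives. Its relative Prrx2 had 1.02 and 1.01 FPKM in Zeb1 libraries and 1.26 and 2.57 FPKM in controls, and also did not pass (log2 fold change of -0.50, adjusted p = 0.764).

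Snai2, known as Slug and a marker of migrating neural crest, and Twist1, a mesodermal and neural crest factor, were at the edge of detection. Snai2 (chromosome 16, 14705852 to 14709395) had 0.164 and 0.0784 FPKM in Zeb1 libraries and was listed at 0 in both controls. The recovered fragments were 6 and 3 in Zeb1 libraries and 0 and 0 in controls, where 3 fragments would have given 0.0818 and 0.0813 FPKM. The 95% Poisson intervals were 2.20 to 13.1 and 0.619 to 8.77 fragments in Zeb1 libraries and up to 3.69 fragments in each control. They overlapped, but each covers counting error in a single library, and their overlap is no test of a difference. Snai2 lay below the level for testing. Over controls at 0, neither a ratio nor the counting interval given for Twist1 below was formed. No conclusion on a difference is therefore drawn in either direction.

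Twist1 (chromosome 12, 33957671 to 33959817) had 0.106 and 0.101 FPKM in Zeb1 libraries, against 0.0351 and 0.0349 FPKM in controls. These tidy values are 3 and 3 fragments in Zeb1 libraries and 1 and 1 in controls. The ratio, 2.96, has an exact 95% counting interval of 0.530 to 30.0, so the difference is not detectable at this depth. Without a filter on low values limma nevertheless called Twist1 higher (adjusted p = 0.0343, with 0.581% of 48395 genes called). The equal fragment numbers leave the libraries of a group almost no spread (SD of 0.00315 FPKM in Zeb1 libraries and 0.000163 FPKM in controls). Twist2, the remaining Twist gene, was listed at 0 in all 4 libraries.

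**Figure D3:**
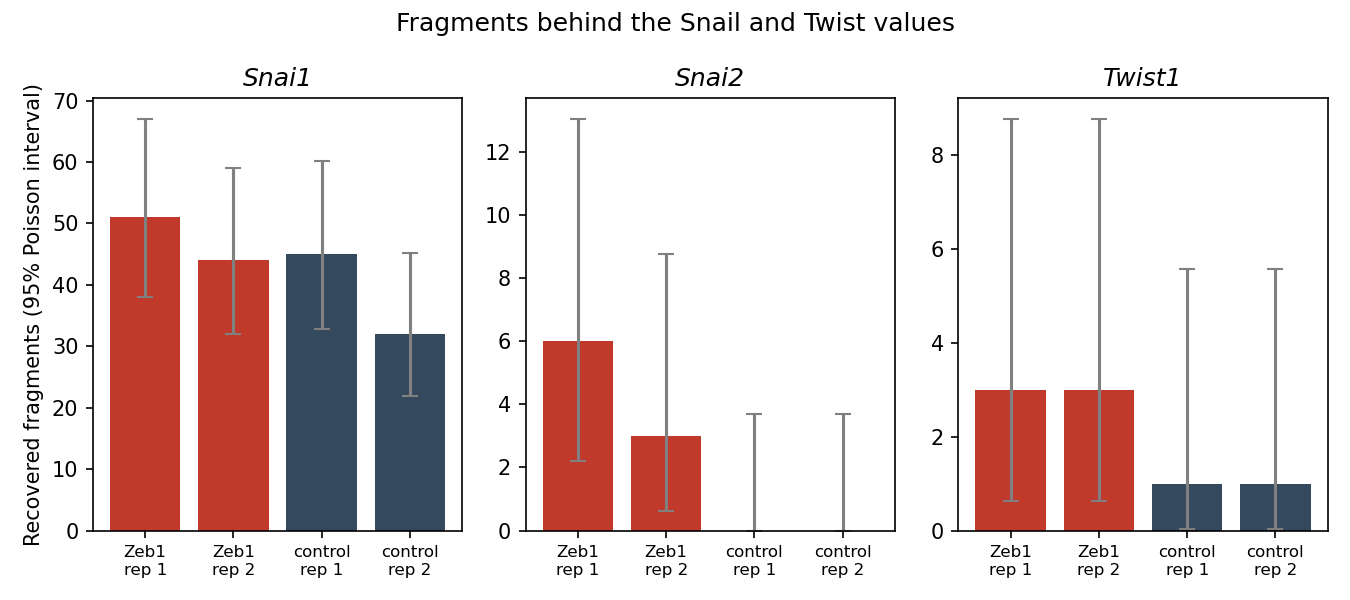
Recovered fragments of Snai1, Snai2 and Twist1 in each library, Zeb1 libraries left and controls right, with exact 95% Poisson intervals as bars. Snai1 rests on 32 to 51 fragments with overlapping intervals, while Snai2 rests on 6 and 3 against 0 and 0 and Twist1 on 3 and 3 against 1 and 1.

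In control cells the levels thus ran in the order Zeb2, Zeb1, then Snai1 and Prrx1, whose values overlapped (1.57 and 1.11 against 1.18 and 1.38 FPKM), then Twist1, with Snai2 and Twist2 at 0. Zeb2 was 77.1 and 89.7 times Snai1 in controls. In Zeb1 libraries Zeb1 moved to the top, Zeb2 was 49.4 and 68.9 times Snai1, and Snai2 and Twist1 overlapped each other below 0.2 FPKM. Of the 4 tested genes 1, Zeb1, rose, 0 fell, and 3 did not pass. At an unadjusted p under 0.05 the count was also 1, Zeb1 itself, which the plasmid set. The unadjusted limma p was 0.311 for Zeb2, 0.547 for Snai1 and 0.463 for Prrx1, where 6.92% of all genes tested were under 0.05. Among protein-coding genes alone the adjusted p called 0.0252% of 11916 genes, and Zeb1 was 1 of those 3.

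**Figure D4:**
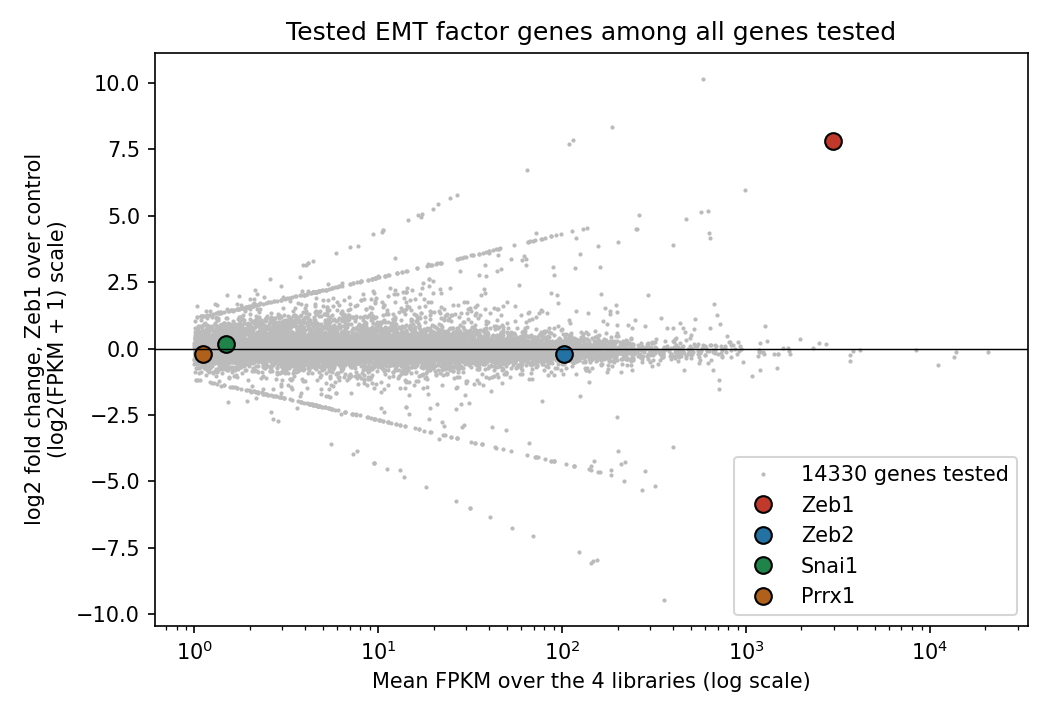
Log2 fold change of Zeb1 over control libraries against mean FPKM over the 4 libraries (log scale) for the 14330 genes tested, with the 4 tested EMT factor genes in colour. Zeb1 lies at 7.80, while Zeb2 (-0.21), Snai1 (0.18) and Prrx1 (-0.22) lie near 0, and genes listed at 0 in 3 of the libraries fall on the straight lines.

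For each tested gene, the 3 protein-coding genes with the most similar profile over the 4 libraries were found by the Euclidean distance between log2(FPKM + 1) values centred on the gene's own mean, among 11915 genes. This distance grows with the size of a change, so the plasmid set Zeb1 apart by design, and its closest genes had large rises. They were the calcium channel gene Cacna1g, the transcription factor gene Ebf3 and the loricrin gene Lor, at 4.25, 4.43 and 5.13. Their log2 fold changes were 3.60, 3.39 and 2.71. Lor had 6.11 and 8.40 FPKM in Zeb1 libraries and 0.252 and 0.250 FPKM in controls. It thus reached the level for testing through the Zeb1 libraries. Zeb2 was followed most closely by Ift172 (an intraflagellar transport gene, distance 0.034), Plekha1 (0.049) and Sh3bp2 (0.064). Snai1 was followed by Kpna2 (an importin, 0.015), Wwp1 (a ubiquitin ligase, 0.018) and Stard4 (a sterol carrier, 0.020). Prrx1 was followed by Mterf2 (0.020), Slc48a1 (a haem transporter, 0.026) and Nvl (0.027). With 4 libraries and 11915 genes, such likeness can come from the spread between replicates, and shared control was not tested.

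The Scratch genes are the neural branch of the Snail superfamily, and unlike Snai1 they were well expressed. Scrt2, which acts in newborn cortical neurons as they leave the ventricular surface, had 96.2 and 93.4 FPKM in Zeb1 libraries, against 124 and 128 FPKM in controls. Both Zeb1 libraries lay below both controls, as did those of 19.5% of all genes tested. The log2 fold change was -0.41 with a 95% interval of -0.77 to -0.041 and an unadjusted limma p of 0.0369. At an unadjusted p under 0.05, 3.68% of all genes tested were lower. Scrt2 did not pass in limma over all genes (adjusted p = 0.693). Scrt1 had 56.9 and 55.4 FPKM in Zeb1 libraries and 55.7 and 54.8 FPKM in controls, with a log2 fold change of 0.023 (95% interval of -0.33 to 0.37).

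The dimer partners of Twist were among the more abundant factors. Of 7 E-protein and Id genes 0 passed in limma, where 0.195% of all genes tested did. At an unadjusted p under 0.05 the count was also 0, against 6.92% of all genes tested. For so few genes, counts of 0 lie near these shares. Their median log2 fold change was 0.13, against 0.00032 over all genes tested. The E-protein gene Tcf4 had 572 and 956 FPKM in Zeb1 libraries and 636 and 757 FPKM in controls, and Tcf12 had 132 and 115 FPKM against 119 and 94.8 FPKM. The Id genes encode proteins that hold E proteins inactive, and 0 of the 4 passed, with every 95% interval including 0. Id2 had 159 and 142 FPKM in Zeb1 libraries and 192 and 199 FPKM in controls (log2 fold change of -0.37), while Id3 had 9.26 and 13.2 FPKM against 3.05 and 8.67 FPKM (0.95) and Id1 31.4 and 15.8 FPKM against 11.3 and 22.2 FPKM (0.46). Id4 had 24.02 and 18.9 FPKM in Zeb1 libraries and 21.03 and 28.4 FPKM in controls (-0.19).

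The proteins that ZEB and Snail factors work with were measured too. All 19 corepressor and partner genes were tested, 0 passed in limma, 1 had an unadjusted p under 0.05, where 6.92% of all genes tested did, and the median log2 fold change was 0.025. The acetyltransferase gene Kat2b was the 1 gene, with 14.6 and 17.3 FPKM in Zeb1 libraries and 10.5 and 11.1 FPKM in controls (log2 fold change of 0.52, unadjusted p = 0.0290). For the deacetylase genes Sirt1 and Hdac2 the log2 fold change was 0.47 and -0.27, and for the Polycomb gene Ezh2 it was -0.22. Ctbp2 had 79.0 and 79.9 FPKM in Zeb1 libraries and 90.5 and 88.2 FPKM in controls. Zeb1 transcripts, with plasmid and endogenous not separated, thus exceeded those of this corepressor per length in Zeb1 libraries and not in controls. Of 10 kinase and ligase genes of Snail and Twist protein turnover 0 passed, where 0.195% of all genes tested did. By an unadjusted p under 0.05 the count was also 0, against 6.92% of all genes tested. Their median was 0.090, and the kinase gene Pak1 had the smallest p, with a log2 fold change of -0.45, followed by Prkd1 (0.23), Siah1a (-0.20) and Gsk3b (0.15).

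**Figure D5:**
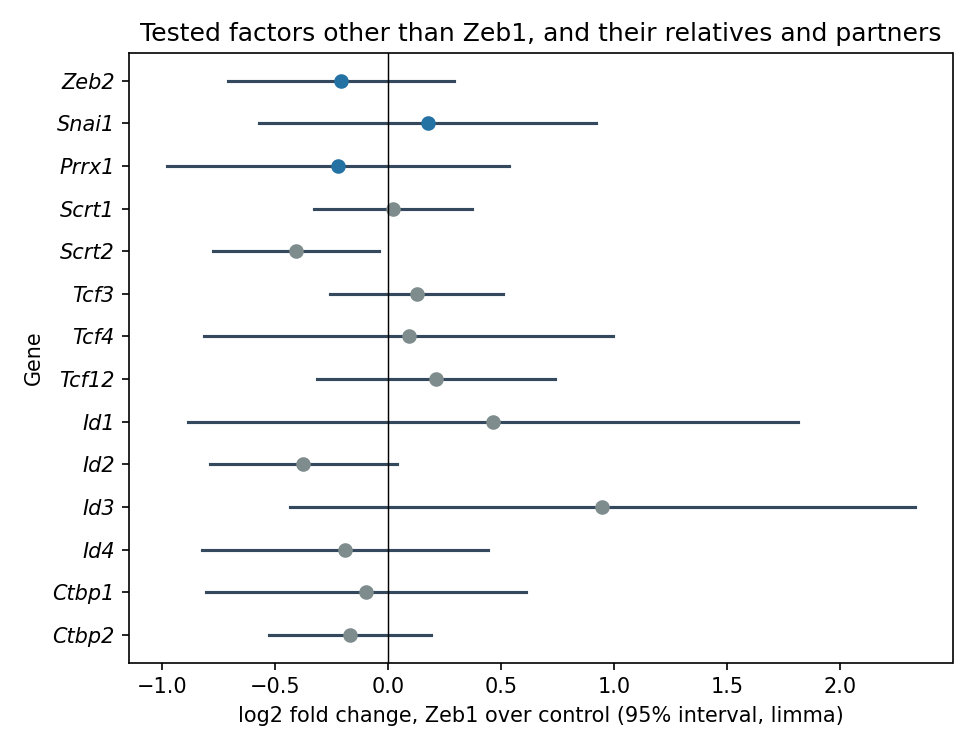
Log2 fold change of Zeb1 over control libraries with 95% limma intervals for Zeb2, Snai1 and Prrx1 (blue) and for Scratch, E-protein, Id and CtBP genes (grey). The interval of Scrt2 (-0.77 to -0.041) lies below 0, and that of each other gene shown includes 0. The intervals are not adjusted for the number of genes tested.

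Other factors linked to EMT were mostly low. Of 20 genes 8 were tested, with a median log2 fold change of 0.12. In limma 0 passed and 0 had an unadjusted p under 0.05, against 0.195% and 6.92% of all genes tested. Klf8, a repressor of E-cadherin, had 8.54 and 10.8 FPKM in Zeb1 libraries and 7.27 and 3.69 FPKM in controls (log2 fold change of 0.77). The YAP pathway genes Tead1 and Yap1 had log2 fold changes of 0.38 and 0.51. Foxc1, the relative of Foxc2, reached 0.173 and 0.0892 FPKM in Zeb1 libraries and 0.0926 and 0.144 FPKM in controls. Of 19 genes for upstream signals 15 were tested and all 15 had positive log2 fold changes, as did 7174 of all 14330 genes tested, with a median of 0.26, although 0 passed in limma. An unadjusted p under 0.05 was reached by 2, both higher, as it was by 3.23% of all genes tested. Those 2 were the growth factor receptor gene Egfr (4.65 and 6.29 FPKM in Zeb1 libraries against 2.70 and 1.95 FPKM in controls) and Tgfb3, a ligand that induces EMT factors (4.11 and 3.80 FPKM against 2.05 and 2.14 FPKM). Notch1 had a log2 fold change of 0.72, and Tgfb1, which microglia express, one of 1.11, with 20.3 and 12.4 FPKM in Zeb1 libraries and 11.2 and 3.996 FPKM in controls. In all 4 libraries Tgfb1 stood in the same order as the summed microglial markers except that Zeb1 replicate 2 and control replicate 1 changed places, and the part of these cells was not tested.

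Most epithelial factors that hold EMT factors in check lay below the level for testing. Of 13 genes 2 were tested, and Ovol2 and Elf5 were listed at 0 in all 4 libraries. In limma 0 passed and 0 had an unadjusted p under 0.05, against 0.195% and 6.92% of all genes tested. Klf5 had a log2 fold change of 0.18. Klf4 was the exception in level, with 121 and 36.8 FPKM in Zeb1 libraries and 30.0 and 12.5 FPKM in controls, a log2 fold change of 1.73 with a 95% interval of -0.36 to 3.82 (limma adjusted p = 0.749). Like the microglial markers, Klf4 was highest in Zeb1 replicate 1 and lowest in control replicate 2, and the part of those cells was not tested.

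The epithelial targets of ZEB and Snail repressors give the readout closest to the factors. The table held 28 of the 29 listed and 6 reached the test. In limma 0 of the 6 passed over all genes, while 4, all lower, had an unadjusted p under 0.05, where 3.68% of all genes tested were lower. Rab25 reached the level for testing through the controls alone, so the 6 are no fair sample of the list. Over all 28 without a filter the median log2 fold change was -0.076. Spint2, a membrane protease inhibitor, had 3.32 and 2.04 FPKM in Zeb1 libraries, against 7.86 and 9.05 FPKM in controls, with a log2 fold change of -1.38 (adjusted p = 0.447). The adhesion receptor gene Cxadr, the claudin gene Cldn3 and the polarity gene Pard6b had log2 fold changes of -1.07, -1.37 and -1.20. Rab25, an epithelial trafficking GTPase, had 0.865 and 0.744 FPKM against 1.83 and 1.57 FPKM in controls, and the tight junction gene Tjp3 1.10 and 1.253 FPKM against 1.76 and 1.47 FPKM. E-cadherin itself, Cdh1, had 0.0472 and 0.0159 FPKM in Zeb1 libraries and 0.0704 and 0 FPKM in controls, so its repression could not be read here.

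Of 20 mesenchymal genes that EMT factors raise, 13 were tested, 0 passed in limma, and 4, all higher, had an unadjusted p under 0.05, where 3.23% of all genes tested were higher. The 4 were Mmp2, Vim, Tnc and Axl, with log2 fold changes of 2.48, 0.75, 0.54 and 1.29, and Vim is also among the radial glia markers above. Of the 13, 10 had positive and 3 negative log2 fold changes. The cadherin genes Cdh11 (-0.88) and Cdh2 (-0.14) had both Zeb1 libraries below both controls, as did 19.5% of all genes tested, and the fibronectin gene Fn1 (-0.53) had groups that overlapped. The median over the 13 was 0.54, and it was 0.23 without control replicate 2 and 0.27 without Zeb1 replicate 1. Those are the libraries with the lowest and the highest microglial markers, and the part of microglia in the median was not tested. Medians without control replicate 1 or Zeb1 replicate 2 are not given here. Mmp2 stayed between 2.28 and 3.14 over the alternatives. Of 5 genes known downstream of Zeb2 in cortical neurons 3 were tested. Of these 0 passed and 0 had an unadjusted p under 0.05, against 0.195% and 6.92% of all genes tested. Unc5b, Sfrp1 and Nin had log2 fold changes of -0.38, -0.21 and 0.14.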

How the data were processed

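The authors deposited FPKM per gene and library, in a table of 48395 genes with 1 emptied line. The submitters' processing notes name GRCm38 as the build and STAR, DESeq2 and Cufflinks as tools, with neither versions nor roles. Names stored as dates (27) were restored from gene identifiers, and 1 was added to start positions. For a repeated symbol the longest locus was taken. The 2 groups were tested in R 4.3.3 by limma 3.58.1 on log2(FPKM + 1), two-sided and with an intensity trend. Benjamini-Hochberg adjustment at 0.05 ran over the 14330 genes that averaged 1 FPKM or more. The script was tested on simulated data. No exact permutation p is given, since its minimum with 2 libraries a group is 0.333. Fragments were recovered from genes with 1 GENCODE M21 transcript of 1000 to 10000 bases, by a line through the reciprocal FPKM of single-fragment genes over transcript length. The identifier versions of Snai2 and Twist1 differ from M21. Their recovered values lay within 0.1 of whole numbers, as did those of Snai1.

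The genes and lists were chosen with earlier results of these data known, and lists are described by counts and medians only. Named were the 9 EMT factor genes, up to 4 tested genes per list by p, the 3 genes of most similar profile and, as marker lists, the summed levels of 11 of 12; the other is not reported here. Genes named beyond that (Zeb2os, Tcf4, Ctbp2, Foxc1, Cdh1, Rab25, Tjp3, Lum, Pdgfra, Tbr1, Id4, Cdh11, Cdh2, Fn1 and those at 0) were chosen after their values were seen. Tried as alternatives were protein-coding genes alone, no filter or one at 5 FPKM, pseudocounts of 0.1 and 0.5, 3 scalings, no trend, robust moderation, a replicate block and leaving out each library. Sequences were read from RefSeq (GRCm38.p6) and GENCODE M21.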

Additional observations from a re-analysis of the deposited data

How the results depend on the processing

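The test over all genes called 28 genes, and the count was 281 without a filter (143 higher, 138 lower), 3 among protein-coding genes alone and 11 with a replicate block. Leaving out any 1 library gave 0 to 0 genes in limma, against 690 to 1325 at an unadjusted p under 0.05. Zeb1 lost its call without a filter (log2 fold change of 7.80, adjusted p = 0.0746), with a replicate block (7.80, adjusted p = 0.0735) and with any library left out (7.35 to 8.24); it kept it under the other 9 alternatives, down to an adjusted p of 0.00318 among protein-coding genes alone. Whether equal replicate numbers pair the libraries is not given, and the correlation of their deviations was 0.0833 across genes. Zeb2 stayed between -0.35 and -0.067 and did not pass under any of the 15 alternatives. Signs turned without Zeb1 replicate 1 for Id1 (-0.013, with 0.94 as the other end of the range over libraries left out) and Klf5 (-0.065 to 0.43), and without control replicate 2 for Sfrp1 (-0.44 to 0.019) and Nin (-0.024 to 0.30). The cause was not tested. Twist1 passed without a filter, the only setting in which it was tested. Depth limits Snai2 and Twist1, which rest on at most 6 fragments per library.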
